A study of Mus musculus with 8 samples.

Results

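Interferon-stimulated genes are the genes that a cell switches on when interferon binds its receptor. A list of 41 such mouse genes was followed here. Of these, 36 had a probe carrying their symbol in the platform annotation, and 24 of the 36 had a probe above noise on at least 2 of 8 arrays, out of 10187 genes and unnamed probes that passed the same limit. Members were taken by name, and noise was 36.7 intensity units, which is 3 times the root mean square of the values below 0. Of the 24 members, 23 were above noise on all 8 arrays and Mx2 on 2.

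Type I interferons act through the receptor chains Ifnar1 and Ifnar2, the kinases Jak1 and Tyk2 and the factor ISGF3, which includes Stat2 and Irf9 and binds interferon-stimulated response elements. Interferon gamma acts through gamma-activated sites. IRAK4 is a kinase recruited with Myd88 to Toll-like and interleukin-1 receptors. Some endosomal Toll-like receptors can use this route to switch on interferon genes.

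The labels describe 8 samples of macrophages grown from bone marrow of female 129/BL6 mice for 5 days in medium conditioned by L929 cells, a fibroblast line that secretes a macrophage growth factor. The 4 groups of 2 arrays were IRAK4 KI with acLDL, IRAK4 KI untreated, wild type with acLDL and wild type untreated. KI mice carry a knock-in that leaves IRAK4 without kinase activity, and acLDL (acetylated low-density lipoprotein, a ligand of scavenger receptors) was given at 100 ug/ml for 24 hours. The study compared the acLDL response of the genotypes. The labels do not say whether the 2 samples of a group are separate animals or cultures. The p-values therefore rest on the spread between such samples, possibly a technical one, and the number of arrays limits the precision.

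The levels did not match the labelled cell type. Of 8 lung epithelial markers, 7 were above noise on all 8 arrays, with Sftpc (surfactant protein C) at 30721 to 42212 intensity units. Of 9 macrophage markers with a probe, 7 were above noise on all 8 arrays, with Lyz2 (lysozyme) at 16521 to 32663, while on 0 arrays did Itgam (the integrin CD11b) or Fcgr1 (a receptor for antibodies) exceed noise. Group names below therefore stand for the labels of the arrays. Lymphocyte markers were above noise on all 8 arrays for 8 of 11 with a probe and neutrophil markers for 6 of 7. With RNA of several cell types in a sample, fewer cells of a type and less RNA per cell cannot be told apart. On 3 of 8 arrays the closest array by correlation was the other array of the same group.

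Upstream sequences of 4 members are shown because the tests below turn on Rsad2, Parp12 and Ifi47, and because Ifit3 is a classical target of ISGF3. They are the 250 bases before the RefSeq start on GRCm38.p6, written 5' to 3' on the gene's strand. They lie at chr12:26456453-26456702 on the minus strand for Rsad2, at chr6:39118350-39118599 on the minus strand for Parp12, at chr11:49076337-49076586 on the plus strand for Ifi47 and at chr19:34583279-34583528 on the plus strand for Ifit3. Capitals mark matches to an interferon-stimulated response element, searched on both strands as the letters GAAA, any 2 bases and GAAA again, so that a match can also read as the reverse complement.
Rsad2: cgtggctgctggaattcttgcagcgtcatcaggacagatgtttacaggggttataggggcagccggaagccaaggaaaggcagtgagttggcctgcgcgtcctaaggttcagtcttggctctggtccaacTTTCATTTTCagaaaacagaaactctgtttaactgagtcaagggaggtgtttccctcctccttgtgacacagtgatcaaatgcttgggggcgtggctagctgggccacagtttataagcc
Parp12: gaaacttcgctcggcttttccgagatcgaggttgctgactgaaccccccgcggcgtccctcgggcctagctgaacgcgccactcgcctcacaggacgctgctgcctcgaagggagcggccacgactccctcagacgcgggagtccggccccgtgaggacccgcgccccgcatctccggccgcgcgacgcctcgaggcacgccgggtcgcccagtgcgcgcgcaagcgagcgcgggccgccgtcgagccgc
Ifi47: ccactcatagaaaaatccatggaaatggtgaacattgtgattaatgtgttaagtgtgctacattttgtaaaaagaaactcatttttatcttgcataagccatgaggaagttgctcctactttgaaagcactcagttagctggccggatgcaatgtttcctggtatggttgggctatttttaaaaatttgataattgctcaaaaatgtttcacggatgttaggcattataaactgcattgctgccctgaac
Ifit3: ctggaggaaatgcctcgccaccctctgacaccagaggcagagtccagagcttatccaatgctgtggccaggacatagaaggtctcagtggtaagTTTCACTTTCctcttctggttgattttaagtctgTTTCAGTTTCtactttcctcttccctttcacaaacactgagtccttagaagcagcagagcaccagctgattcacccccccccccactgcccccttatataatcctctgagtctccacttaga
Rsad2 held 1 match, at position -120 from the start, and Ifit3 held 2, the first at position -156. Parp12 and Ifi47 held none in this window, nor any match to a gamma-activated site, searched as TTCNNNGAA, which reads the same on both strands. A match to one motif can overlap a match to the other. Over windows of 300 bases, which reach 50 bases past the start, the response element was found for 18 of 35 members with a promoter entry, against 3.99% of 27025 genes. Among the members above noise it was found for 10 of 23, and the gamma-activated site for 9 of 23, against 9.55% of all genes. A match is a run of letters and not a measured binding site.

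Of the members below the noise limit, Cxcl9 and Cxcl10, chemokines that attract activated T cells, were above noise on 0 arrays, with Cxcl9 between 14.3 and 33.6 intensity units. The same held for Ifit1, an inhibitor of viral RNA translation, for the RNA sensors Ifih1 and Dhx58, for Oas3, Oasl1 and Oasl2 of the oligoadenylate synthetase family, for the antiviral GTPase Mx1 and for the GTPases Iigp1 and Tgtp1. Oas2 was above noise on 1 array, at 57.9 units on KI acLDL replicate 2, against 17.8 on the other KI acLDL array. Its other 6 arrays lay between -1.4 and 25.7 units. Isg15, Usp18, Oas1a, Gbp2 and Ifi44 had no probe under their symbol in the annotation used and were not analysed here.

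**Figure D1:**
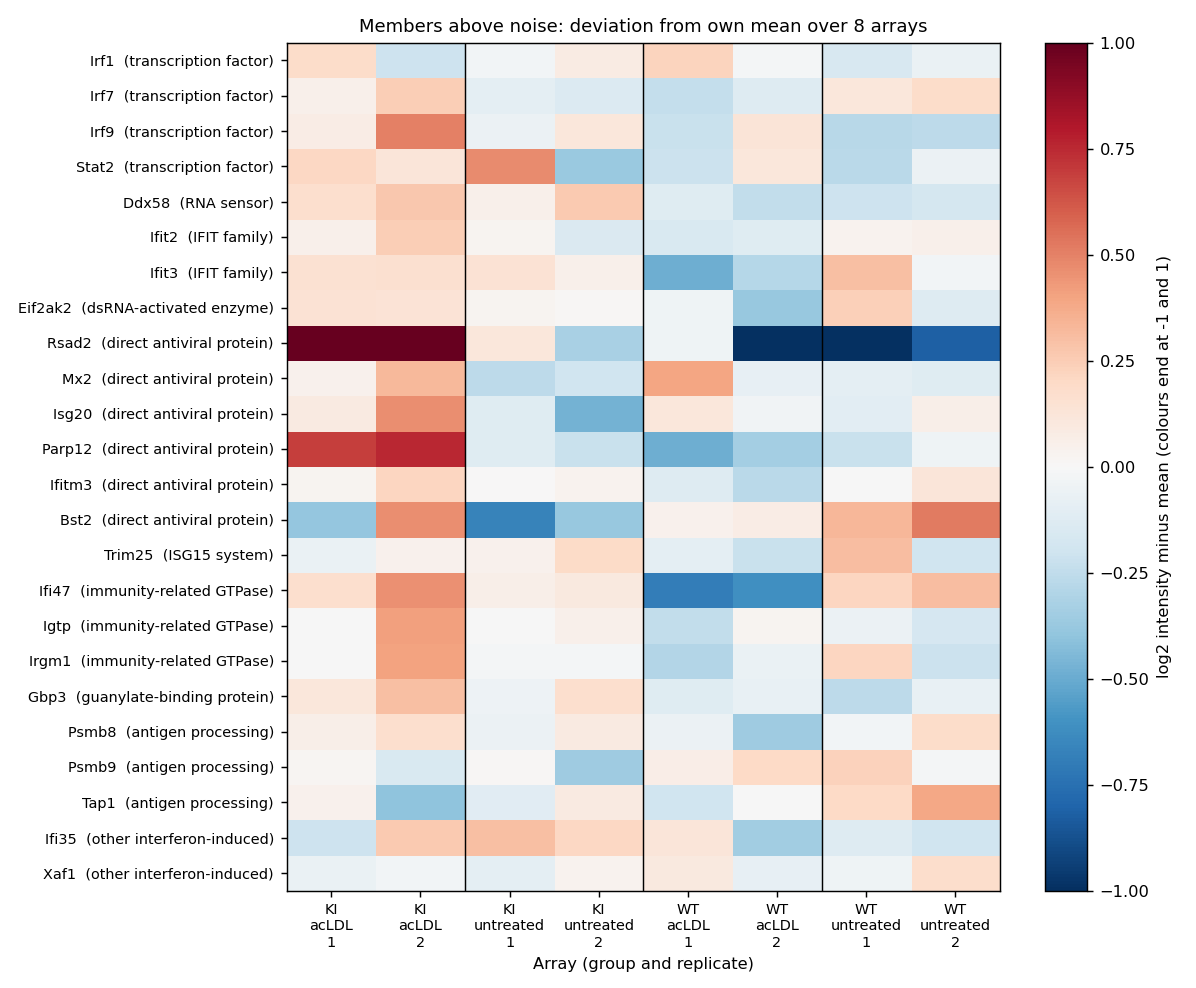
Heat map of the 24 members above noise (rows, by role) on the 8 arrays (columns, by group and replicate). Colour gives log2 intensity minus the member's own mean over 8 arrays, ending at -1 and 1. The KI acLDL columns are dark red for Rsad2 and Parp12, and the wild type acLDL columns are blue for Ifi47. KI acLDL replicate 2 is the highest array for 12 of 24 members.

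In the arrays labelled IRAK4 KI, no member passed the test of acLDL against untreated. Rsad2 and Parp12 had the largest log2 changes. Of the 6 antiviral members, Rsad2, Parp12, Isg20 and Mx2 had acLDL arrays wholly above the untreated ones, while Bst2 and Ifitm3 overlapped. The share of all items wholly above was 18.3%, and Mx2 was below noise on the untreated arrays. Of 24 members, 19 had a positive log2 change, with a median of 0.14, while 47.9% of all tested items were positive, with a median of -0.01.

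Rsad2, which encodes viperin, an enzyme that makes a nucleotide analogue blocking viral RNA synthesis, gave 2435 and 2678 intensity units on the KI acLDL arrays, against 761.9 and 551 on the untreated KI arrays. In wild type it gave 678 and 219 units with acLDL, against 316 and 378 without. Both KI acLDL arrays were far above the other 6, and the wild type acLDL arrays lay on either side of the untreated ones. The log2 change in KI was 1.91 (SE 0.40, n = 2 each, adjusted p = 0.522 by limma), or 3.75-fold. Without wild type acLDL replicate 1 or replicate 2, whose gap enters the shared spread, the limma adjusted p was 0.0300.

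Parp12, an ADP-ribosyltransferase that limits viral translation, gave 231 and 243 units on the KI acLDL arrays, against 112 and 102 on the untreated KI arrays. In wild type it gave 77.4 and 90.8 units with acLDL, against 102 and 122 without. The KI acLDL arrays were again the highest of the 8, and the wild type acLDL arrays were the lowest. The log2 change in KI was 0.90 (SE 0.12, n = 2 each, adjusted p = 0.0903 by limma).

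Isg20, an exonuclease that degrades viral RNA, gave 146 and 202 units on the KI acLDL arrays, against 121 and 85.2 on the untreated KI arrays, a log2 change of 0.57 (SE 0.17, n = 2 each, adjusted p = 0.723 by limma). In wild type it gave 150 and 131 units with acLDL, against 123 and 143 without, so that the wild type groups overlapped. Mx2, an antiviral GTPase, gave 26.7 and 42.0 units on the KI acLDL arrays, against 13.4 and 16 on the untreated KI arrays. It gave 46.2 and 21.0 on the wild type acLDL arrays, against 20.4 and 19.3 on the untreated ones. Only 1 array in each acLDL group and 0 untreated arrays were above noise, so its fitted log2 change in KI (0.41, SE 0.17, adjusted p = 0.767 by limma) is given without a fold.

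Bst2, or tetherin, which holds budding virus at the cell surface, had a log2 change of 0.56 in KI, with groups that overlapped. The log2 changes of the other members were smaller. The 3 immunity-related GTPases, which act on vacuoles around intracellular pathogens, had log2 changes of 0.18 for Igtp, 0.22 for Irgm1 and 0.24 for Ifi47. Irf7, a regulator of interferon genes, had one of 0.27 and Irf9, the DNA-binding part of ISGF3, one of 0.26. Stat2, its other subunit in the list, had one of 0.12 and Irf1, a factor shared with interferon gamma signalling, one of -0.04. The antigen processing genes Psmb8 and Psmb9, subunits of the immunoproteasome, and Tap1, a peptide transporter, had log2 changes between -0.17 and 0.11. Ifi35 and Xaf1 had changes of -0.23 and -0.02, Ifit2 had one of 0.21, and the remaining members lay between -0.13 (Trim25) and 0.15 (Gbp3).

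By the test (limma on all 8 arrays, Benjamini-Hochberg over 10187 items), 0 members were called in KI, against 0.0196% of all items. At an unadjusted p under 0.05 there were 5 members, against 6.46% of all items. The KI acLDL arrays lay wholly above the untreated ones for 10 of 24 members (18.3% of all items) and wholly below for 0 (20.7%). The median rested in part on 1 array: it was 0.07 without KI acLDL replicate 2 and 0.22 without replicate 1. KI acLDL replicate 2 was the highest of 8 arrays for 12 members, against 17.8% of all items, and replicate 1 for 0. Neutrophil probes summed to 5740 and 5808 units on the KI acLDL arrays, against 4096 and 4020 on the untreated KI arrays. Among them S100a8, a calcium-binding protein abundant in neutrophils, gave 2633 and 3117 units with acLDL, against 1634 and 1476 without. S100a8 was the largest part of the sum on each of these arrays. S100a9 and Camp were also higher with acLDL, Retnlg and Ltf overlapped, and Mmp9 was lower, at 168 and 158 units against 212 and 196. Lymphocyte marker probes summed to 2324 and 2606 units on the KI acLDL arrays, against 2691 and 2807 on the untreated KI arrays. Cd2, Cd79a, Cd79b and Ms4a1 were lower on both acLDL arrays, while Cd3d, Cd3e, Cd3g, Nkg7 and Klrb1c overlapped. The part of these neutrophil and lymphocyte markers in the KI values was not tested.

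In the arrays labelled wild type, 1 member, Ifi47, fell with acLDL by the test, and the members' median change was slightly negative. Of 24 members, 11 had a positive and 13 a negative log2 change, with a median of -0.12, while 52.1% of all tested items were positive, with a median of 0.01. That median was -0.02 without untreated wild type replicate 1.

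Ifi47, also called Irg-47, an interferon-induced GTPase, gave 130 and 140 intensity units on the wild type acLDL arrays, against 283 and 306 on the untreated wild type arrays. In KI it gave 273 and 344 units with acLDL, against 249.6 and 258 without. The 2 wild type acLDL arrays were the lowest of the 8, with a gap to the others. Ifi47 fell by 0.92 on the log2 scale in wild type (SE 0.12, n = 2 each, adjusted p = 0.0482 by limma). The call was lost on leaving out any single one of the 8 arrays (limma adjusted p = 0.0629 to 0.228), while the log2 change stayed between -0.97 and -0.87. It was also lost with the replicate number as a block (adjusted p = 0.0637 by limma).

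Ifit3, an antiviral adaptor protein, gave 134 and 161 units on the wild type acLDL arrays, against 264 and 201 on the untreated wild type arrays, a log2 change of -0.53 (SE 0.14, n = 2 each, adjusted p = 0.231 by limma). In KI it gave 233 and 235 units with acLDL, against 232 and 214 without. The wild type acLDL arrays were below the other 6. A second Ifit3 probe was above noise on 0 arrays, and whether the probe used also takes RNA of the near-identical gene Ifit3b was not tested. Irf7 gave 48.8 and 56.2 units with acLDL in wild type, against 75.0 and 80.7 without, a log2 change of -0.34 (SE 0.11, n = 2 each, adjusted p = 0.310 by limma). In KI it gave 69.9 and 86.3 units with acLDL, against 58.6 and 55.9 without.

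Ifit2, which binds viral RNA with its relatives, gave 234 and 239.9 units with acLDL in wild type, against 273 and 277 without, and 276 and 323 with acLDL in KI, against 271 and 236 without. Its groups did not overlap in either genotype, though the log2 changes were small, at -0.18 in wild type and 0.21 in KI. The immunoproteasome and transporter genes Psmb8 and Tap1 had log2 changes of -0.28 and -0.40 in wild type, and Psmb9, which lies next to Tap1 on chromosome 17, one of 0.03. Irf9 and Irf1 had changes of 0.22 each. Eif2ak2, the RNA-dependent kinase PKR, had one of -0.27, and Ddx58, the sensor RIG-I, one of 0.01. Igtp and Irgm1, GTPases of the same family as Ifi47, had changes of 0.00 and -0.18.

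In wild type 0 members were called higher (0.118% of all items) and 1 was called lower (0.0589%). At an unadjusted p under 0.05 there were 5 members, against 12% of all items. The acLDL arrays lay wholly below the untreated ones for 9 of 24 members (19.9% of all items) and wholly above for 3 (21.9%). The summed intensity of lymphocyte marker probes was 1983 and 2256.5 on the wild type acLDL arrays, against 3004 and 3233 on the untreated ones. Cd3d, Cd3e, Cd3g, Cd2 and Cd79b were lower on both acLDL arrays, while Cd79a, Ms4a1, Nkg7 and Klrb1c overlapped. Gzma and Ncr1, 2 of the 11 lymphocyte markers, were above noise on 0 arrays. Neutrophil markers summed to 2929 and 1926 units with acLDL, against 4751 and 4759 without. S100a8, S100a9, Retnlg and Ltf were lower on both acLDL arrays, while Camp and Mmp9 overlapped. The part of these lymphocyte and neutrophil markers in the result was not tested.

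**Figure D2:**
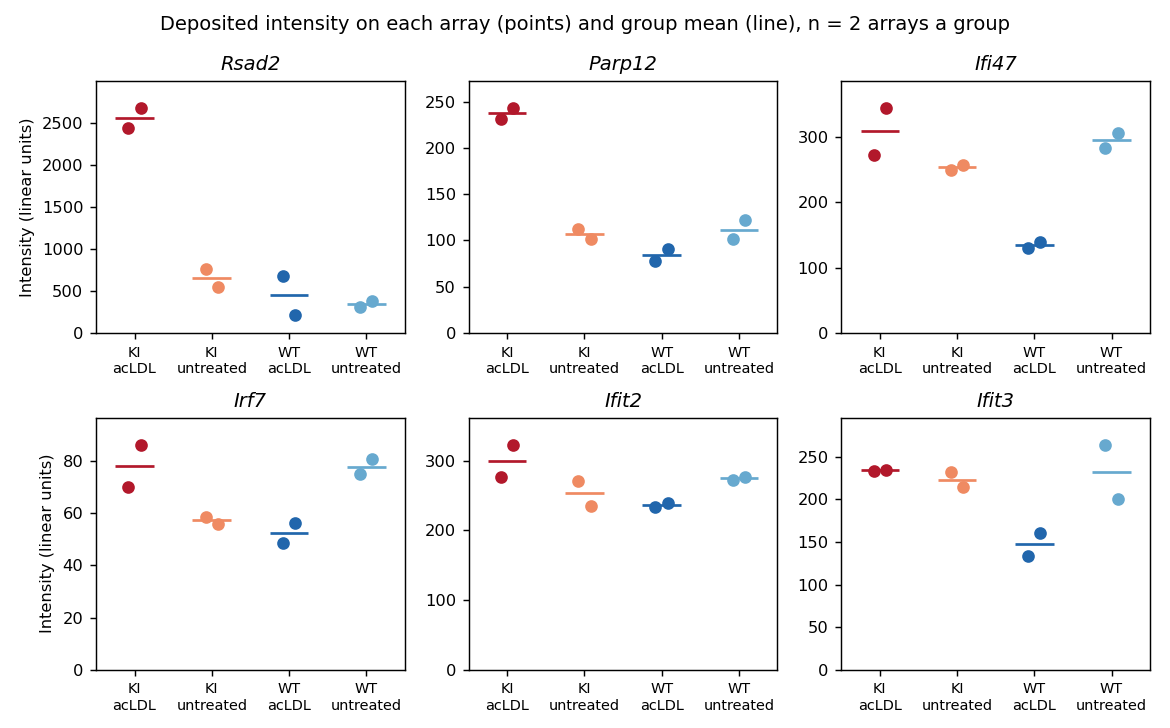
Deposited intensity of 6 members on each array (points, linear axis from 0) with the mean of 2 arrays (line), in the order KI acLDL, KI untreated, wild type acLDL, wild type untreated. The KI acLDL points of Rsad2 (2435 and 2678) and Parp12 (231 and 243) lie above all others, and the wild type acLDL points of Ifi47 (130 and 140) lie below all others.

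The genotypes' acLDL effects were next subtracted, KI minus wild type. The effect was more positive in KI for 22 of 24 members, with a median difference of 0.29, while 47.1% of all items were more positive in KI, with a median of -0.02. The 2 exceptions were Irf1 (-0.25) and Ifi35 (-0.28). No member passed the test of the difference (0.0491% of all items did, 0.0393% in the positive direction), and 7 had an unadjusted p under 0.05, against 8.59% of all items. This comparison uses the same arrays as the 2 comparisons above, so its values are not a separate line of evidence. The summed neutrophil probes had the same pattern without overlap. They were higher with acLDL in KI (5740 and 5808 units, against 4096 and 4020 untreated). They were lower with acLDL in wild type (2929 and 1926 units, against 4751 and 4759 untreated). Of the neutrophil markers above noise, only S100a8 and S100a9 had this pattern in both genotypes without overlap. Retnlg and Ltf overlapped in KI, Camp and Mmp9 overlapped in wild type, and Mmp9 was lower with acLDL in KI. The summed lymphocyte probes were instead lower with acLDL in both genotypes. They gave 2324 and 2606 units in KI, against 2691 and 2807 untreated. In wild type they gave 1983 and 2256.5 units, against 3004 and 3233 untreated. The part of these neutrophil and lymphocyte markers in the difference was not tested.

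Rsad2 had the largest difference of the members, at 1.75 (SE 0.57, adjusted p = 0.550 by limma), and also the largest error, with its wild type acLDL arrays far apart. Parp12 had a difference of 1.18 (SE 0.16, adjusted p = 0.147 by limma) and Ifi47 one of 1.16 (SE 0.18, adjusted p = 0.151 by limma). The difference for Parp12 came mostly from KI and that for Ifi47 mostly from wild type. Bst2 had a difference of 0.93 (SE 0.35, adjusted p = 0.562 by limma). Irf7 had one of 0.60 (SE 0.16, adjusted p = 0.441 by limma) and Ifit3 one of 0.59 (SE 0.20, adjusted p = 0.552 by limma). The 6 antiviral proteins had differences from 0.15 to 1.75, the 3 immunity-related GTPases from 0.18 to 1.16 and the 3 antigen processing genes from 0.08 to 0.38. The median difference was 0.19 without untreated wild type replicate 1.

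For 5 members, Irf7, Ifit2, Ifit3, Parp12 and Ifi47, both acLDL arrays lay above both untreated arrays in KI and below them in wild type. Among all items 7.74% had groups that did not overlap in opposite directions. Of these 5 members, Ifit3 alone held the response element in its promoter window and Ifit2 alone the gamma-activated site. Ifit2 and Ifit3 lie next to each other on chromosome 19.

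**Figure D3:**
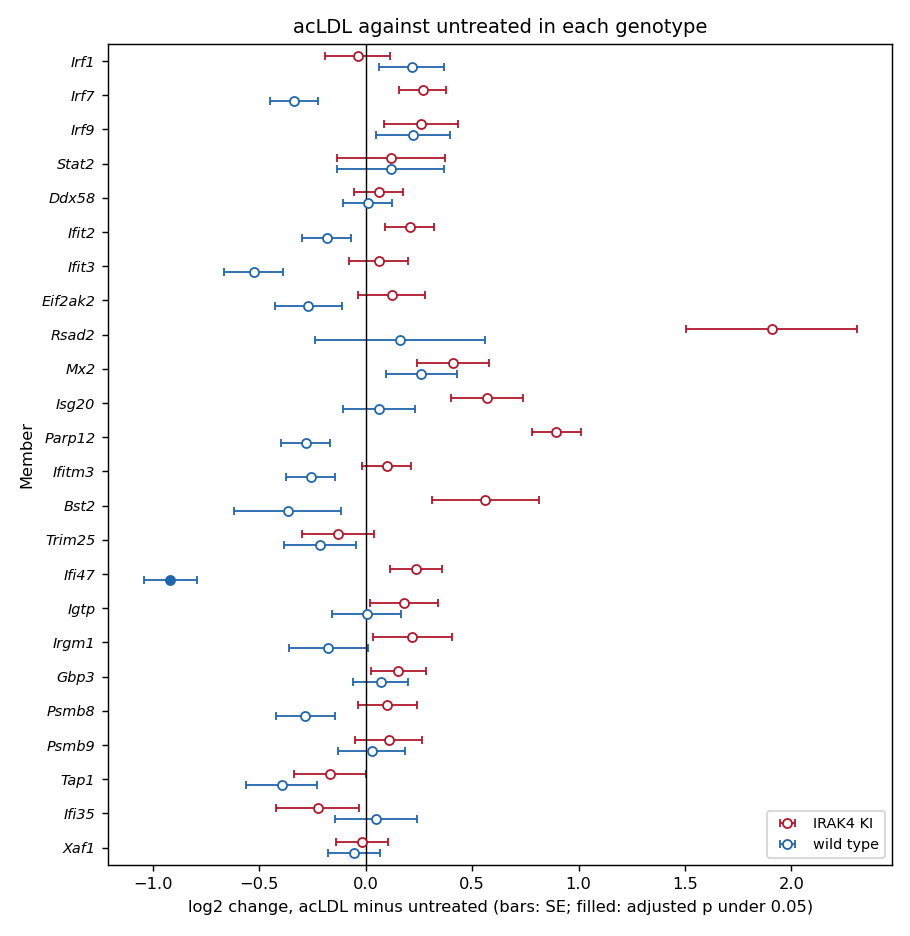
Log2 change with acLDL (x axis, acLDL minus untreated) of the 24 members (y axis, by role) in IRAK4 KI (red) and wild type (blue). Bars are standard errors of the fit and filled points have an adjusted p under 0.05. Ifi47 in wild type, at -0.92, is the single filled point, and the KI point lies to the right of the wild type point for 22 members.

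Under acLDL, Parp12 and Ifi47 were higher in KI than in wild type and passed the test, and Rsad2 had the largest fold but did not pass. Of 24 members, 19 had a positive log2 difference, with a median of 0.31, while 46.1% of all items were positive, with a median of -0.03. The share of all items with an unadjusted p under 0.05 was itself high in this comparison, at 21.8%, and 9 of 24 members were among them.

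Parp12, at 231 and 243 units on the KI acLDL arrays, against 77.4 and 90.8 on the wild type acLDL arrays, was 2.20-fold higher in KI (log2 difference 1.14, SE 0.12, n = 2 each, adjusted p = 0.0154 by limma). The call held without any single untreated array (limma adjusted p = 0.0321 or 0.0349) and was lost without any single acLDL array (0.0622 to 0.126). Ifi47, at 273 and 344 units, against 130 and 140, was 1.96-fold higher in KI (log2 difference 0.97, SE 0.12, n = 2 each, adjusted p = 0.0362 by limma). Its call held without KI acLDL replicate 1 (adjusted p = 0.0456 by limma) and was lost without any other single array (0.0743 to 0.183). Rsad2, at 2435 and 2678 units, against 678 and 219, had a log2 difference of 2.58 (SE 0.40, n = 2 each, adjusted p = 0.0621 by limma), or 5.96-fold. Without wild type acLDL replicate 1 its log2 difference was 3.30 (adjusted p = 0.00474 by limma), and without wild type acLDL replicate 2 it was 1.85 (0.0668).

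Among the other members, Ifit3 had a log2 difference of 0.54 (SE 0.14, adjusted p = 0.106 by limma). Ddx58 gave 153 and 167 units on the KI acLDL arrays, against 118 and 104 on the wild type acLDL arrays, a log2 difference of 0.40 (SE 0.12, adjusted p = 0.126 by limma). It gave 138 and 166 units on the untreated KI arrays, against 108 and 111 on the untreated wild type arrays, so all 4 KI arrays were above all 4 wild type arrays. Ifitm3, which blocks virus entry at endosomes and was the brightest member, had log2 intensities of 12.87 ± 0.13 in KI and 12.55 ± 0.10 in wild type under acLDL (SD, n = 2 each). The immunoproteasome gene Psmb8 had a difference of 0.32, Gbp3, a guanylate-binding protein, one of 0.30 and Irgm1 one of 0.38. Trim25, a ubiquitin ligase that activates RIG-I, had one of 0.15. Negative differences, of -0.20 to -0.02, were found for Psmb9, Irf1, Tap1, Xaf1 and Bst2.

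By the test, 2 of 24 members were higher in KI under acLDL (0.157% of all items) and 0 lower (0.0589%). The KI arrays lay wholly above the wild type arrays for 14 of 24 members (24.1% of all items) and wholly below for 1, Psmb9 (30.9%). The median of 0.31 was 0.18 without KI acLDL replicate 2. Neutrophil probes summed to 5740 and 5808 units in KI under acLDL, against 2929 and 1926 in wild type, with no overlap. S100a8, S100a9, Camp and Mmp9 were higher on both KI arrays, while Retnlg and Ltf overlapped. Macrophage probes summed to 28030.5 and 38756 units in KI, against 28190 and 23876 in wild type, so these sums overlapped, and most of each was Lyz2. Sirpa, a surface receptor in the macrophage list, was lower on the KI arrays, at 5038.5 and 4496, against 6483 and 6115 in wild type. Lyz2, Tyrobp and Mertk were instead higher on both KI arrays, and Adgre1, Cd14 and Aif1 overlapped. Tyrobp gave 204 and 269 units in KI, against 117 and 86.6 in wild type. Lymphocyte probes summed to 2324 and 2606 units in KI, against 1983 and 2256.5 in wild type, with no overlap. Cd3e, Cd3g, Nkg7 and Klrb1c were higher on both KI arrays and Ms4a1 was lower. Cd3d, Cd2, Cd79a and Cd79b overlapped. Itgam and Fcgr1, 2 of the 9 macrophage markers, and Ngp, 1 of the 7 neutrophil markers, were above noise on 0 arrays. The part of these markers in the result was not tested.

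**Figure D4:**
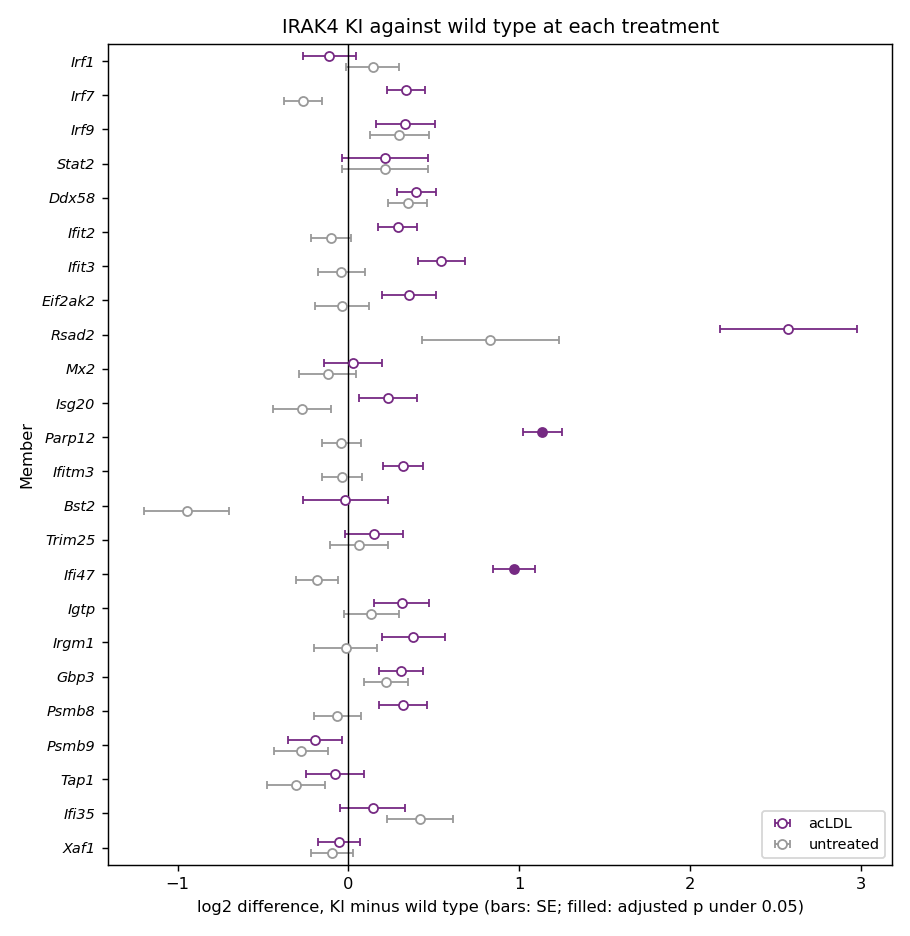
Log2 difference between genotypes (x axis, KI minus wild type) of the 24 members (y axis, by role) with acLDL (purple) and untreated (grey). Bars are standard errors of the fit and filled points have an adjusted p under 0.05. Parp12 (1.14) and Ifi47 (0.97) under acLDL are filled, and Rsad2 under acLDL lies farthest right at 2.58.

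Between untreated arrays the members' median difference lay near 0. Of 24 members, 9 had a positive and 15 a negative log2 difference, with a median of -0.04, against a median of -0.01 and 48.8% positive over all items. No member passed the limma test (0.00982% of all items did), and 3 had an unadjusted p under 0.05, against 15% of all items. Untreated KI arrays lay wholly above untreated wild type arrays for 7 members (23.7% of all items) and wholly below for 7 (25.7%).

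Bst2 had the largest difference between untreated arrays, with 1910 and 2337 units in KI, against 3853 and 4399 in wild type (log2 difference -0.95, SE 0.25, n = 2 each, adjusted p = 0.203 by limma). With acLDL it gave 2325 and 4241 units in KI, against 3149.5 and 3215 in wild type, so the KI arrays lay on either side of the wild type ones. Bst2 is also a marker of plasmacytoid dendritic cells, and Siglech, a marker of the same cells, lay between 51.2 and 67.9 units on the 8 arrays. The 5 markers of these cells with a probe, of which Ccr9 was above noise on 0 arrays, summed to 1804 and 2515 units in untreated KI, against 1642 and 1055 in untreated wild type. Nearly all of this sum was 1 gene, Cox6a2, at 1628 and 2327 units in untreated KI, against 1470 and 895.5 in untreated wild type. Siglech gave 62.5 and 55.8 units in untreated KI, against 65.3 and 51.2 in untreated wild type. The part of these markers in the result was not tested. Rsad2 had a log2 difference of 0.83 (SE 0.40, adjusted p = 0.375 by limma) and Parp12 one of -0.04. Ifi35, an interferon-induced leucine zipper protein, gave 225 and 209 units in untreated KI, against 156 and 147 in untreated wild type (log2 difference 0.42, SE 0.19, adjusted p = 0.358 by limma). Ddx58 had one of 0.35 (SE 0.12, adjusted p = 0.246 by limma) and Irf7 one of -0.27 (SE 0.11, adjusted p = 0.321 by limma).

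Probes of 1 gene did not always give the same picture. Irf1 had 4 probes, of which the brightest, used above, lay between 1426 and 1935 units. A second one lay between 116 and 229 units, with 229 and 179 on the KI acLDL arrays, against 122 and 159 on the wild type acLDL arrays. Another gave 139.8 and 101 units on the KI acLDL arrays, against 38.5 and 72.5 on the wild type acLDL arrays. On these dimmer probes the KI acLDL arrays were above the wild type ones, while the brightest probe overlapped. The remaining probe was above noise on 1 array. A second Irgm1 probe was above noise on 0 arrays.

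Outside the list, 92 other genes of the interferon pathway were followed, of which 56 were above the noise limit, and 0 were called in any of the 5 comparisons by limma (lowest adjusted p = 0.0622). Of 30 further interferon-induced genes, 23 had a positive log2 difference between KI and wild type under acLDL, at a median of 0.25, and 26 had a negative change with acLDL in wild type, at a median of -0.20. With acLDL in KI, 15 of the 30 were positive and 15 negative, at a median of -0.00031, and between untreated genotypes 15 were positive and 15 negative, at a median of 0.0064. Plac8, a cysteine-rich protein of myeloid and lymphoid cells, gave 589.6 and 516 units on the KI acLDL arrays, against 285 and 291 on the wild type acLDL arrays (log2 difference 0.84, SE 0.14, n = 2 each, adjusted p = 0.0622 by limma). The groups did not overlap.

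Of 7 interferon ligand and related genes with a probe, only Il18, an inducer of interferon gamma, was tested, with a log2 difference of acLDL effects of 1.13 (SE 0.42, adjusted p = 0.554 by limma). Il18 gave 194 and 243.5 units on the KI acLDL arrays, against 108 and 169 on the untreated KI arrays. In wild type it gave 121 and 110 units with acLDL, against 292 and 128 without, so the untreated wild type arrays lay far apart. Interferon receptors and their kinases, 7 tested, had a median difference of 0.12 between KI and wild type under acLDL. Jak2, the kinase of the interferon gamma receptor, had a log2 difference of 0.32 between untreated KI and wild type (SE 0.11, adjusted p = 0.268 by limma). Irf2, a factor that competes with Irf1, had one of 0.35 under acLDL (SE 0.11, adjusted p = 0.140 by limma). Sensors and adaptors, 9 tested, had a median log2 difference of -0.0031 in KI against wild type under acLDL. Tlr7, an endosomal RNA receptor, had a fitted log2 change of -0.63 with acLDL in wild type (SE 0.16, adjusted p = 0.231 by limma). It gave 19 and 18.1 units there with acLDL, both below noise, against 57.8 and 48.5 without. Tlr7 exceeded noise only on untreated arrays, so the size of that change is uncertain. Socs3, a feedback inhibitor of cytokine receptors, gave 636 and 932 units with acLDL in wild type, against 484 and 449 without (log2 change 0.68, SE 0.17, adjusted p = 0.231 by limma).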

How the data were processed

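RNA of 8 samples was measured on Illumina mouse beadchips. The authors deposited intensity values on a linear scale, and BeadStudio is the tool named in the submitters' processing notes. Between 29.1% and 29.3% of an array's values are below 0, and sorted columns differ by at most 1.4 units, so background subtraction and quantile normalization are read from the values. Column medians are 23.7 or 23.8. Another table, with 16 columns that no label identifies, was not used.

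Background was handled by normexp in limma with an offset of 16 before the log2 step, applied to the deposited intensities. Of 24613 probes, 11819 exceeded noise (3 times 12.2 units) on 2 or more arrays. Gene symbols came from the platform annotation supplied, which belongs to another platform than the chip the labels name, joined by probe identifier. 20984 probes had 1 symbol. The brightest probe stood for a gene, giving 10187 items. The 8 arrays were fitted together in limma 3.58.1 under R 4.3.3, with a mean for each of 4 groups, 4 residual degrees of freedom, 5 comparisons and Benjamini-Hochberg adjustment at 0.05. The comparisons share arrays. The offset compresses folds of dim probes. The fit was also run on simulated data, with independent noise and changes placed only in the KI acLDL group. That run held no shift of a whole array or of a mixture of cell types, so it cannot show how the fit handles them. Marker sums add a list's probes, with values below 0 set to 0.

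The members, lists and tests were chosen with earlier results of these data known. Values on every array are given for members past the threshold, for the 4 members with the smallest p of each comparison and for those with opposite acLDL changes in the genotypes. Per pathway list, the gene with the smallest p is named. The members' counts and medians, and the log2 changes of members picked by this rule in a comparison, were recomputed with an offset of 50, with a floor of 1 in place of background correction, after cyclic loess, on unfiltered probes, on probes above noise on 8 arrays, on the compared groups alone, with replicate number as a blocking term, and without each array.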

Additional observations from a re-analysis of the deposited data

Results flagged for a closer look

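For 5 members both acLDL arrays lay above both untreated arrays in IRAK4 KI and below both in wild type. The acLDL effect in KI minus that in wild type was 1.18 for Parp12 (SE 0.16, limma adjusted p = 0.147), 1.16 for Ifi47 (SE 0.18, limma adjusted p = 0.151), 0.604 for Irf7 (SE 0.16, limma adjusted p = 0.441), 0.586 for Ifit3 (SE 0.20, limma adjusted p = 0.552) and 0.39 for Ifit2 (SE 0.16, limma adjusted p = 0.578), all on the log2 scale. None of these 5 differences passed the test of the difference itself. Among all items, 7.74% had groups that did not overlap in opposite directions.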

How the results depend on the processing

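With 2 arrays a group, the counts of called members rested on the settings, and the cause of each change was not tested. In wild type, the 1 member called with acLDL became 0 without background correction, without a filter, with only the groups compared, with the replicate number as a block, and without any 1 array (0 to 0). The median was -0.027 without a filter and -0.17 to -0.023 on leaving out 1 array. In KI the count was 0 to 1 on leaving out 1 array, and the median 0.074 to 0.22. For the difference of effects the count was 0 to 0, and the median 0.19 to 0.39, 0.39 without background correction and 0.20 without a filter. Between genotypes under acLDL, the 2 members became 0 without background correction, 1 (Parp12) without a filter and 0 with only the groups compared. On leaving out 1 array, the calls of Parp12 and Ifi47 were kept or lost as given above. The median was 0.22 without a filter and 0.18 to 0.40 without 1 array. Rsad2 passed between genotypes under acLDL with an offset of 50 (limma adjusted p = 0.0364) and among items above noise on all 8 arrays (0.0399). Between untreated arrays the count was 0 to 0 and the median -0.041 to -0.0022. Alternatives were run for the members' counts and medians and for the log2 changes of the members that the naming rule picked in a comparison, not for the other log2 changes, the pathway lists or the marker sums. The log2 changes so recomputed kept their sign. The fit on only the groups compared was not run for the difference of effects, where it is the same fit, and Mx2 has no value among items above noise on all 8 arrays. The labels do not say whether a replicate number links samples of different groups. Correlations of the replicate deviations between groups lay between -0.31 and 0.29. They were positive among KI acLDL, KI untreated and wild type acLDL (0.19 to 0.29). Between each of these and untreated wild type they were negative (-0.31 to -0.06). Whether the numbers mark a batch was not tested. With the replicate block, Parp12 and Ifi47 stayed called between genotypes under acLDL (limma adjusted p = 0.0328 and 0.0457).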
